A study of Mus musculus with 16 samples.

Results

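The miR-30 family was followed in mouse 3T9 cells, a cultured fibroblast line, as serum was given back after serum deprivation. Its members here were the 8 family arms entered in the count table as mmu-miR-30a-5p, mmu-miR-30a-3p, mmu-miR-30b-5p, mmu-miR-30c-5p, mmu-miR-30c-2-3p, mmu-miR-30d-5p, mmu-miR-30e-5p and mmu-miR-30e-3p, chosen by name from 1167 mature miRNAs, and the mouse prefix mmu is left out of the names from here on. All 8 passed the filter on low counts, which kept 449 miRNAs. Cells of every group had first been made quiescent by 72 h without serum. Small RNA was sequenced at 0 h and after 1, 2, 4, 6, 8, 10 and 12 h in medium with 10% fetal bovine serum, with 2 libraries at each of the 8 times. All cells come from 1 line, and the labels name no genetic change. The series text describes the replicates as independent experiments. Each replicate number has 1 code of its own in the count headers, taken here to name a sequencing run. Experiment and run so defined cannot be told apart.

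A miRNA hairpin yields a duplex of a 5p and a 3p arm, and the arm loaded into an Argonaute protein, the guide, pairs with messenger RNAs through its seed, bases 2 to 8, and lowers their output. The 5p guides of the miR-30 family share a seed and so can recognise overlapping sets of messenger RNAs, while the 3p arms carry other seeds. The family is known from kidney, fat and muscle biology, and in heart cells of the rat its members repress connective tissue growth factor, a matrix-related secreted protein.

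The hairpins lie in small clusters. Mir30a (chr1:23272269-23272339, plus strand) and Mir30c-2 (chr1:23291701-23291784, plus strand) are separated by 19361 bases in the GRCm38.p6 build. Mir30c-2 overlaps an exon of the long non-coding RNA gene Gm27028, and no host gene overlaps Mir30a in the GENCODE vM21 annotation. Mir30c-1 (chr4:120769534-120769622, minus strand) and Mir30e (chr4:120772606-120772697, minus strand) are separated by 2983 bases and lie in introns of Nfyc, which encodes a subunit of the transcription factor NF-Y. miR-30c-5p is encoded identically in both Mir30c hairpins, so its reads cannot be assigned to a locus, and miR-30b and miR-30d come from a cluster of their own.

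Mature sequences were available for 6 of the 8 members from RefSeq (GRCm38.p6) and are shown with the seed in capitals, because miR-30c-5p, which fell, shares its seed with miR-30a-5p and miR-30e-5p, which did not, and differs from them in the bases after it.
miR-30a-5p: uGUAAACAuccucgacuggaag
miR-30c-5p: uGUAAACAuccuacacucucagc
miR-30e-5p: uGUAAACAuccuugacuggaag
miR-30a-3p: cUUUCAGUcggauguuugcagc
miR-30e-3p: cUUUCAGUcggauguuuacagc
miR-30c-2-3p: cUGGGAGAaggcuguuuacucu
miR-30c-1-3p: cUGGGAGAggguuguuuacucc
The 5p arms printed share the seed GUAAACA, the 3p arms of miR-30a and miR-30e share UUUCAGU, and the 3p arms of both Mir30c hairpins share UGGGAGA. Counted from 1 at the 5′ end, miR-30a-5p and miR-30e-5p differ only by C13U, and their 3p arms differ only by G18A. miR-30a-5p and miR-30c-5p share their first 12 bases and differ by C13A, G14C, G18C, G19U and A20C, and miR-30c-5p is 23 bases long against 22 for miR-30a-5p. The 3p arms miR-30c-2-3p and miR-30c-1-3p differ by A9G, C12U and U22C. How reads that match several of these arms were counted is not given in the sources used here, so the split between miR-30a and miR-30e is uncertain, above all for trimmed reads.

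The hairpins that share miR-30c-5p are shown because their 3p arms took different courses after 4 h, with both arms in capitals.
Mir30c-2: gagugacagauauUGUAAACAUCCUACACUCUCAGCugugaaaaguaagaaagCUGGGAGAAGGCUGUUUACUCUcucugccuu
Mir30c-1: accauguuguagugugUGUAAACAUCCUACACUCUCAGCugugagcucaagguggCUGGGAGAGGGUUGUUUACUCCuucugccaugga
In both hairpins the 3 bases that follow the 5p arm are UGU, so a read of miR-30c-5p that goes on with U matches either locus and a read that goes on with A matches neither.

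Libraries held 5852087 to 7783249 miRNA reads, and the 8 members took 2.32% to 2.86% of them. Each library's median correlation with the others was at least 0.986 in log2 CPM (counts per 1000000 reads of the TMM-scaled library total), and none stood apart. The 7 fibroblast or mesenchymal marker miRNAs, among them miR-143-3p and miR-199a-3p, summed to 322496 to 427648 CPM. Most of this sum was miR-22-3p (mean 146659 CPM), miR-143-3p (136104 CPM) and miR-21a-5p (69060 CPM). miR-199a-3p averaged 13517 CPM, and miR-145a-5p and miR-214-3p averaged 900 and 823 CPM. Markers of other tissues were near 0, with sums per library of 0.884 to 2.41 CPM for epithelial, 0.299 to 1.90 CPM for blood, 0.979 to 2.67 CPM for muscle, 0 to 0.629 CPM for liver and 0 to 0.678 CPM for pluripotent markers, and 3.92 to 10.4 CPM for the neural marker miR-9-5p. A count of 0 allows up to 0.385 to 0.513 CPM, taken as 3 counts of the library total, which covers counting error only.

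The family split over the serum course. The guide arms miR-30c-5p and miR-30b-5p fell, miR-30a-5p was slightly higher at the end of the course, and miR-30d-5p and miR-30e-5p did not pass the test at any time. Among the 3p arms, miR-30c-2-3p rose while miR-30c-5p, the guide that Mir30c-2 and Mir30c-1 both encode, fell. By edgeR's quasi-likelihood test on counts, adjusted over the 449 miRNAs tested, 4 of 8 members differed from 0 h at 12 h, 2 lower and 2 higher, against 14.3% of all miRNAs tested (6.01% lower and 8.24% higher). With the linear trend over 0 to 12 h, 5 of 8 members passed, 2 falling and 3 rising, against 25.2% of all miRNAs (13.1% falling and 12% rising). The count at 12 h was 2 when replicate 1 of 0 h or replicate 2 of 12 h was left out, and the trend count was 3 with replicate 2 of 12 h left out. On total counts without TMM, 2 members passed at 12 h, against 15.1% of all, and 3 with the trend, against 33% of all. The members were chosen with earlier results of these data known, so these counts are not an unbiased sample of the family. Of the 4 other miR-30 entries tested, 0 passed by edgeR with TMM at 12 h or with the trend. The test of any change over the later times called 3 of 8 members, miR-30b-5p, miR-30c-5p and miR-30c-2-3p, against 13.8% of all. The median slope of the 8 members was 0.00234 log2 per hour, beside -9.45e-04 over all 449 miRNAs, and the median does not show the split. With the replicate number as a block, any change called 5 members, miR-30a-5p (adjusted p = 0.0128) and miR-30a-3p (adjusted p = 0.00875) in addition, against 24.5% of all miRNAs by edgeR, and 1 member passed at 2 h, against 6.9% of all. These are levels in bulk RNA, in which fewer cells of a kind and less RNA per cell cannot be told apart.

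**Figure D1:**
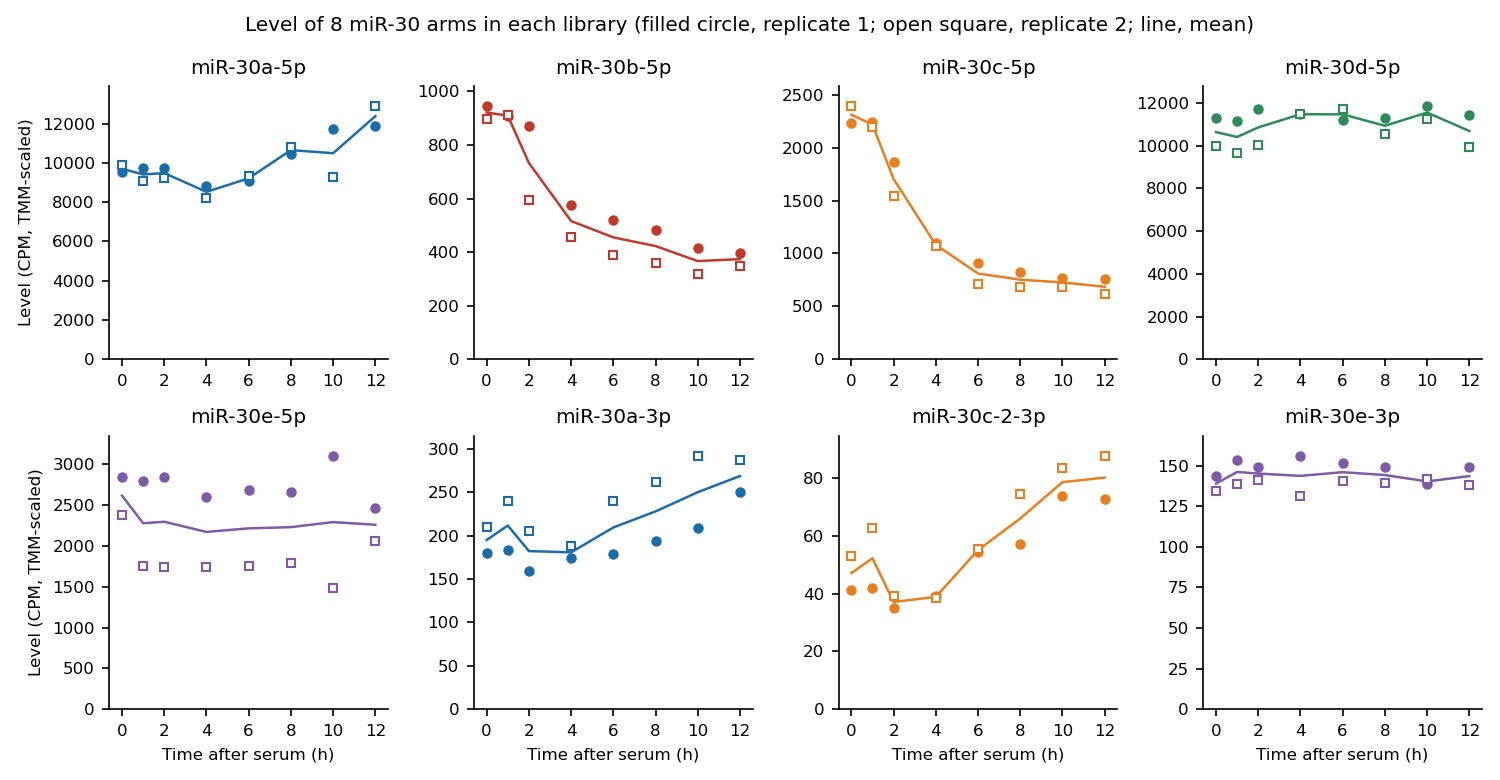
Level of each of the 8 miR-30 arms (CPM on TMM-scaled totals, linear axes that start at 0) against hours after serum, 1 symbol per library (filled circle, replicate 1; open square, replicate 2) with a line through the means. miR-30b-5p and miR-30c-5p are lower from 4 h on than at 0 h in both replicates, and miR-30e-5p is separated by replicate at every time.

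The order of mean levels over the 16 libraries was miR-30d-5p, miR-30a-5p, miR-30e-5p, miR-30c-5p, miR-30b-5p, miR-30a-3p, miR-30e-3p and miR-30c-2-3p. The mature arms printed above are 22 or 23 bases long, so these read counts need no scaling for length. miR-30d-5p, the most abundant, averaged 11005 CPM (9646 to 11850) and ranked 20 among all miRNAs, and its range overlapped that of miR-30a-5p (mean 9986, 8220 to 12890 CPM). miR-30e-5p averaged 2296 CPM (1483 to 3102), miR-30c-5p 1286 CPM (613 to 2392) and miR-30b-5p 587 CPM (317 to 945), each overlapping its neighbour. The 3p arms did not overlap one another: miR-30a-3p spanned 160 to 292 CPM, miR-30e-3p 132 to 156 CPM and miR-30c-2-3p 35.0 to 87.7 CPM.

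miR-30c-5p fell most among the members. In replicate 1 its level over 0, 1, 2, 4, 6, 8, 10 and 12 h was 2232, 2243, 1861, 1096, 914, 826, 769 and 758 CPM, and in replicate 2 it was 2392, 2192, 1546, 1067, 707, 679, 683 and 613 CPM. Every library from 2 h on was below both 0 h libraries, and every library from 4 h on was below both 2 h libraries. By edgeR its log2 change against 0 h was -0.06 (SE 0.16) at 1 h and -0.44 (SE 0.16; adjusted p = 0.204) at 2 h, and with the replicate number as a block the 2 h change passed (adjusted p = 0.0264). miR-30c-5p was lower at 4 h (-1.10, SE 0.16; adjusted p = 6.21e-04), at 6 h (-1.51, SE 0.16; adjusted p = 4.10e-05) and at 8 h (-1.62, SE 0.16; adjusted p = 1.39e-05). It was lower at 10 h (-1.67, SE 0.16; adjusted p = 9.67e-06) and at 12 h (-1.75, SE 0.16; adjusted p = 7.31e-06 by edgeR), where it stood at 0.297 times its 0 h level. The count of members lower than 0 h was 2 of 8 at each of 4, 6 and 8 h, against 2.9% of all miRNAs at 4 h, 2.9% at 6 h and 3.34% at 8 h. At 1 h and at 2 h edgeR called 0 of 8 members, where it called 0.445% and 2.45% of all miRNAs, DESeq2 and limma-voom also called 0, and 0 members at 1 h and 1 at 2 h had an unadjusted p under 0.05. The calls from 4 h on held without any 1 library, and the change at 12 h then lay between -1.89 and -1.57.

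miR-30b-5p fell along a similar course from a lower start. Its level over the same times was 945, 906, 872, 576, 520, 484, 416 and 399 CPM in replicate 1 and 898, 912, 593, 455, 390, 361, 317 and 349 CPM in replicate 2. From 2 h on every library was below both 0 h libraries. By edgeR its log2 change against 0 h was -0.84 (SE 0.22; adjusted p = 0.0324) at 4 h, -1.02 (SE 0.22; adjusted p = 0.0101) at 6 h and -1.12 (SE 0.22; adjusted p = 0.00445) at 8 h. It was -1.33 (SE 0.22; adjusted p = 0.00128) at 10 h and -1.30 (SE 0.22; adjusted p = 0.00119) at 12 h, where the level was 0.406 times that at 0 h. The 4 h call was lost without either 0 h library, without 1 h replicate 2 or without 4 h replicate 2 (edgeR adjusted p up to 0.262). The 6 h call was lost without either 0 h library or 6 h replicate 2 (edgeR adjusted p up to 0.175), and the 8 h call without 8 h replicate 2 (-0.90, edgeR adjusted p = 0.0713). The 10 h and 12 h calls held without any 1 library.

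miR-30a-5p was higher at 12 h by a small amount. It had 11875 and 12890 CPM at 12 h, against 9515 and 9899 CPM at 0 h, and at 4 h it had 8837 and 8220 CPM. Both 12 h libraries were above both 0 h libraries, and both 4 h libraries were below them. By edgeR the change at 12 h was 0.35 (SE 0.11; adjusted p = 0.0483), and the trend was 0.0278 log2 per hour (SE 0.0077; adjusted p = 0.0125). The 12 h call was lost without any 1 of 10 libraries, both of 0, 1, 8 and 12 h and replicate 1 of 2 and 4 h (edgeR adjusted p up to 0.225), and the trend without 12 h replicate 2 (edgeR adjusted p = 0.0513). On total counts without TMM, the 12 h change was 0.19 (edgeR adjusted p = 0.232) and the slope 0.0144 (adjusted p = 0.139). Among reads equal to the reference, the change was -0.02 at 12 h (edgeR adjusted p = 0.947), with the end classes described further on.

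The guides miR-30d-5p and miR-30e-5p did not pass any edgeR test of level. miR-30d-5p had 11423 and 9959 CPM at 12 h, against 11308 and 9966 CPM at 0 h, which overlap, and its edgeR slope was 0.00497 log2 per hour, with a 95% interval from -0.00745 to 0.0174. On total counts without TMM the slope of miR-30d-5p was -0.00835. miR-30e-5p had 2464 and 2056 CPM at 12 h, against 2850 and 2385 CPM at 0 h. Its libraries were separated by replicate number, at 2464 to 3102 CPM in replicate 1 and 1483 to 2385 CPM in replicate 2, and the 95% interval of its slope was -0.0451 to 0.0271 log2 per hour.

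**Figure D2:**
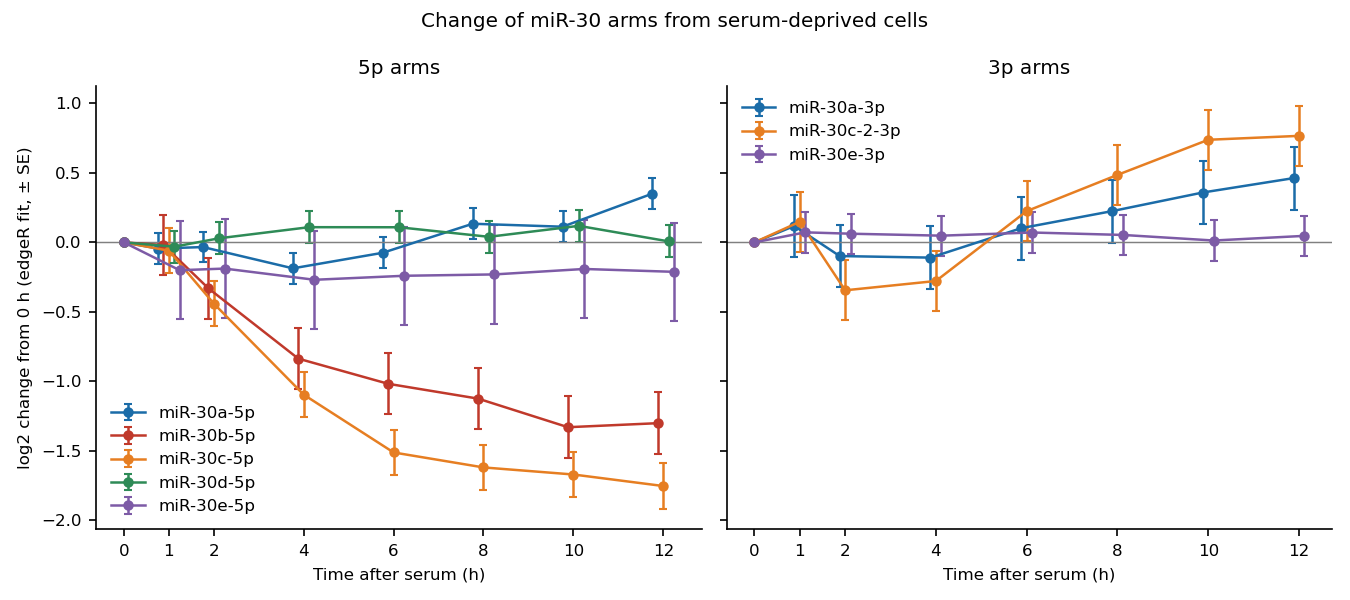
Log2 change of each 5p arm (left) and 3p arm (right) from 0 h by edgeR, with points at each time and bars for 1 SE; points are set slightly apart along the time axis. miR-30c-5p and miR-30b-5p reach -1.75 and -1.30 at 12 h, and miR-30c-2-3p reaches 0.77.

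On TMM-scaled totals the summed level of the 5 guides overlapped between 12 h and 0 h libraries, and their make-up differed. Their levels summed to 26393 ± 743 CPM at 12 h, against 26195 ± 926 CPM at 0 h (SD, n = 2 each), with the lowest mean, 23774 ± 1140 CPM, at 4 h. Without TMM there was no such overlap for the 8 members, which include these guides. They took 2.56% and 2.51% of miRNA reads at 12 h, against 2.86% and 2.73% at 0 h. The TMM factors were 0.936 and 0.950 at 12 h, against 1.05 and 1.05 at 0 h. miR-30b-5p and miR-30c-5p made up 4.01 ± 0.41% of the guides at 12 h, against 12.4 ± 0.74% at 0 h. Their share was 9.68% at 2 h, 6.72% at 4 h, 5.23% at 6 h, 4.69% at 8 h and 4.30% at 10 h.

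Ratios between paralogs within a library do not depend on the scaling of libraries. Of the 10 pairs of guides, 7 had a ratio that changed with hours by a 2-sided permutation test with 100000 resamples, adjusted over the pairs, and all 7 include miR-30b-5p or miR-30c-5p. The pairs share members and are not independent, and these calls largely repeat the falls of miR-30b-5p and miR-30c-5p in level. The log2 ratio of miR-30c-5p over miR-30a-5p was -3.97 and -4.39 at 12 h, against -2.09 and -2.05 at 0 h, and fell by 0.187 per hour (SE 0.0141; r = -0.962, permutation adjusted p = 3.33e-05, where 1e-05 is the smallest unadjusted p possible). Spearman's rho was -0.959 (permutation p = 1e-05, adjusted p = 2.5e-05), and without the 12 h libraries r was -0.963 over 14 libraries. Within replicate numbers, r for miR-30c-5p over miR-30a-5p was -0.978 in replicate 1 and -0.959 in replicate 2. In the other 5 pairs of miR-30b-5p or miR-30c-5p with miR-30a-5p, miR-30d-5p or miR-30e-5p, r lay between -0.956 and -0.880, rho between -0.935 and -0.864 and permutation adjusted p between 3.33e-05 and 5e-05 (r between -0.948 and -0.873 without the 12 h libraries, and between -0.993 and -0.862 within replicate numbers).

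The falling guides differed from each other, though by less. The log2 ratio of miR-30c-5p over miR-30b-5p was 0.93 and 0.81 at 12 h, against 1.24 and 1.41 at 0 h, and fell by 0.0397 per hour (SE 0.00906; r = -0.761, permutation p = 0.00132, adjusted p = 0.00189). Spearman's rho was -0.734 (permutation p = 0.00197, adjusted p = 0.00281), and r was -0.749 without the 12 h libraries, -0.758 within replicate 1 and -0.834 within replicate 2. Among the guides that did not fall, no pair passed over the 16 libraries in the main test, which did not block on replicate number. For miR-30e-5p over miR-30a-5p r was -0.468 (rho -0.479, permutation p = 0.0635; permutation p of r = 0.0685, adjusted p = 0.0837), -0.346 without the 12 h libraries, and the ratio passed without 10 h replicate 1 or 1 h replicate 2 (permutation adjusted p down to 0.0442), with replicate as a block (permutation adjusted p = 5.71e-05) and within replicate 1 (r = -0.827, exact permutation adjusted p = 0.00616) and replicate 2 (r = -0.861, exact permutation adjusted p = 0.0105). For miR-30d-5p over miR-30a-5p r was -0.453 (rho -0.290, permutation p = 0.275; permutation p of r = 0.0753, adjusted p = 0.0837), with r = -0.0729 without the 12 h libraries, -0.761 within replicate 1 and -0.319 within replicate 2. This ratio passed within replicate 1 (exact permutation adjusted p = 0.0376), without the 0 h libraries (permutation adjusted p = 0.0459) and without 0 h replicate 2 or 10 h replicate 2 (permutation adjusted p down to 0.0365), and not within replicate 2 (exact permutation adjusted p = 0.448). For miR-30e-5p over miR-30d-5p r was -0.204 (rho -0.325, permutation p = 0.221; permutation p of r and adjusted p = 0.447), with r = -0.308 without the 12 h libraries, -0.403 within replicate 1 and -0.353 within replicate 2.

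The slopes placed miR-30c-5p at -0.158 log2 per hour (SE 0.0154; edgeR adjusted p = 2.92e-07), with a 95% interval from -0.189 to -0.128, and miR-30b-5p at -0.119 (SE 0.0141; edgeR adjusted p = 2.94e-06). No member's slope differed between the replicate numbers by edgeR, where 0 of 449 miRNAs passed and 24 had an unadjusted p under 0.05. Within replicate number 2 alone, the trend called 2 members, against 12% of all miRNAs in that fit, and the slopes of miR-30a-5p (edgeR adjusted p = 0.192), miR-30a-3p (edgeR adjusted p = 0.0630) and miR-30c-2-3p (edgeR adjusted p = 0.0529) did not pass.

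**Figure D3:**
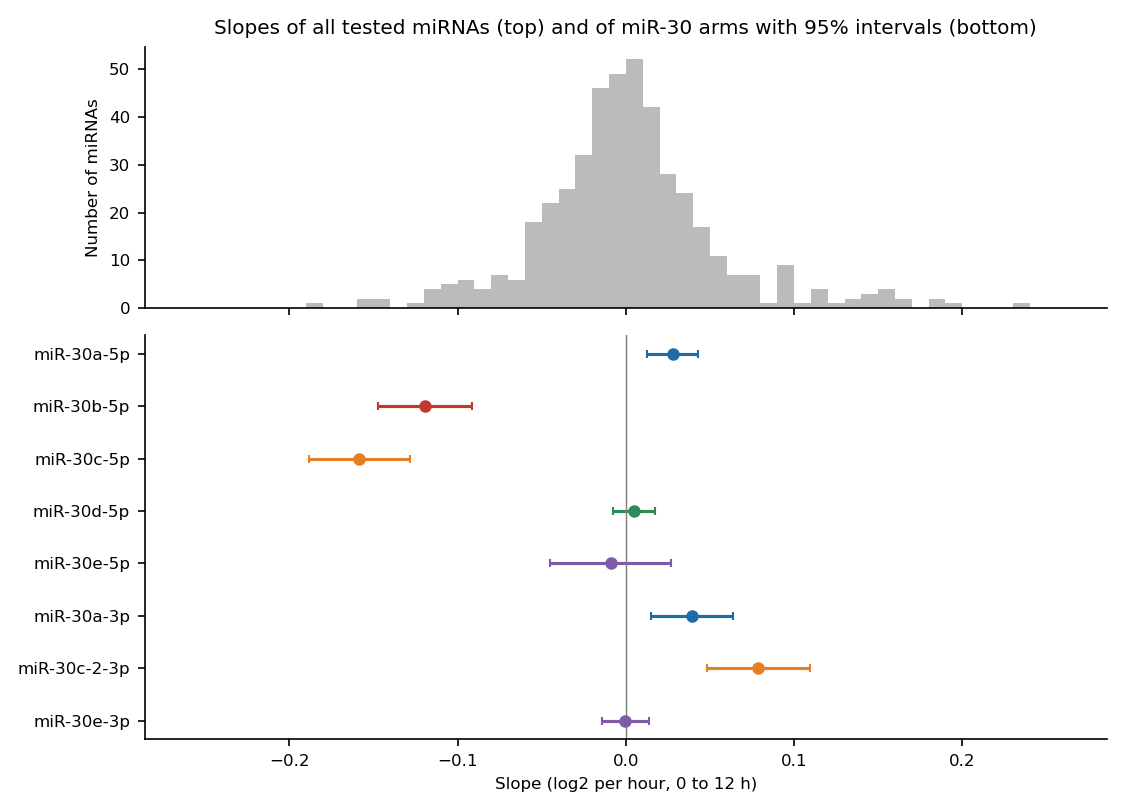
Slopes of log2 level per hour from the edgeR trend fit: a histogram over the 449 miRNAs tested (top) and the 8 members with 95% intervals (bottom). miR-30c-5p at -0.158 lies near the low end of all slopes, and the intervals of miR-30d-5p, miR-30e-5p and miR-30e-3p include 0.

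Among the 3p arms, miR-30c-2-3p rose late in the course. Its level over 0 to 12 h was 41.1, 41.9, 35.0, 39.2, 54.6, 57.4, 73.9 and 72.8 CPM in replicate 1 and 53.2, 62.7, 39.2, 38.6, 55.6, 74.8, 83.5 and 87.7 CPM in replicate 2. All 10 h and 12 h libraries were above both 0 h libraries, and the 2 h and 4 h libraries were below both. By edgeR it was higher at 10 h (0.74, SE 0.21; adjusted p = 0.0365) and at 12 h (0.77, SE 0.21; adjusted p = 0.0274), and 3 of 8 members differed at 10 h, against 11.8% of all miRNAs. The trend was 0.0786 log2 per hour (SE 0.0156; edgeR adjusted p = 0.00110). With the replicate block it also passed at 8 h (0.49, edgeR adjusted p = 0.0326). The 12 h call was lost without 0 h replicate 1 or 12 h replicate 2 (edgeR adjusted p up to 0.187) and on total counts (0.61, edgeR adjusted p = 0.0833), and the 10 h call without either 0 h library or 10 h replicate 2 (edgeR adjusted p up to 0.209) and on total counts (0.61, edgeR adjusted p = 0.0996).

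miR-30a-3p had 251 and 287 CPM at 12 h, against 180 and 210 CPM at 0 h. The 12 h libraries lay above both 0 h libraries, and the change of 0.46 (SE 0.23) did not pass (edgeR adjusted p = 0.208) except with the replicate block (edgeR adjusted p = 0.00796). It rose with the trend, by 0.0395 log2 per hour (SE 0.0125; edgeR adjusted p = 0.0240), and this did not pass when 0 h replicate 1, 10 h replicate 2 or 12 h replicate 2 was left out (edgeR adjusted p up to 0.0783) or on total counts (edgeR adjusted p = 0.146). miR-30e-3p varied little, with 149 and 138 CPM at 12 h, against 144 and 134 CPM at 0 h, and a slope of -2.85e-04 (95% interval -0.0142 to 0.0136).

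The remaining family arms were low and none passed the trend test. miR-30c-1-3p, the partner of miR-30c-5p on chromosome 4, had 30.2 and 29.9 CPM at 12 h, against 30.5 and 36.8 CPM at 0 h. Its edgeR slope was -0.0133 log2 per hour (adjusted p = 0.492). It had 26.5 and 21.7 CPM at 2 h and 28.7 and 22.4 CPM at 4 h. These were below both 0 h libraries, as for miR-30c-2-3p at the same times. The changes of miR-30c-1-3p did not pass at 2 h (-0.48, edgeR adjusted p = 0.260) or 4 h (-0.40, edgeR adjusted p = 0.249). miR-30b-3p averaged 11.7 CPM with a slope of -0.00468 (edgeR adjusted p = 0.847), miR-30d-3p 68.8 CPM with 0.00324 (edgeR adjusted p = 0.916) and miR-30f 9.31 CPM with -9.45e-04 (edgeR adjusted p = 0.957). All miR-30f reads, 53 to 89 per library, were trimmed, and 0 equalled the reference, so its level does not show the full-length form. miR-384-5p, which shares the seed GUAAACA, had 1 read in each of 2 libraries and was not tested.

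The ratio of 3p over 5p reads rose where the 5p guide fell. With limma on the log2 ratio of 3p over 5p reads in 129 hairpins, 3 of the 6 miR-30 hairpins had a rising ratio, against 10.9% of all hairpins. Mir30c-2 changed most by its test statistic among the 129, at 0.241 log2 per hour (SE 0.0203; limma adjusted p = 1.21e-07), and Mir30c-1 came next at 0.148 (SE 0.0167; limma adjusted p = 4.77e-06). These ratios share miR-30c-5p as the denominator and so are not independent. The ratio for miR-30b rose by 0.114 per hour (SE 0.0162; limma adjusted p = 4.52e-05), with 48 to 108 reads of miR-30b-3p per library. The levels of miR-30c-1-3p and miR-30b-3p had no called trend, so the Mir30c-1 and miR-30b ratios largely restate the falls of their 5p arms. For miR-30a the slope was 0.0121 (limma adjusted p = 0.617), for miR-30e 0.00995 (limma adjusted p = 0.768) and for miR-30d -0.00470 (limma adjusted p = 0.900).

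The share of 3p reads among miR-30c-2-3p and miR-30c-5p reads was 8.77% and 12.5% at 12 h, against 1.81% and 2.18% at 0 h, and every library from 6 h on was above all earlier ones. It rested on 247 to 558 reads of the 3p arm per library. For Mir30c-1 the share averaged 4.24 ± 0.57% at 12 h, against 1.43 ± 0.12% at 0 h, and for miR-30b 3.47 ± 0.84% at 12 h, against 1.31 ± 0.21% at 0 h (SD, n = 2 each). miR-30e had the highest share at 0 h, and averaged 6.00 ± 0.40% at 12 h, against 5.07 ± 0.37% at 0 h. Because miR-30c-5p reads come from both hairpins, these shares are not those of a single locus. The 3 arm calls held without any 1 library, with the replicate block and within each replicate number. Among reads equal to the reference the miR-30a ratio also rose (0.0590 per hour, limma adjusted p = 0.00433), and the slopes were 0.384 for Mir30c-2 and 0.271 for Mir30c-1. Such reads were 3.65% to 5.64% of miR-30a-5p reads but 72.0% to 80.5% of miR-30a-3p reads. The log2 odds of this class fell by 0.0399 per hour in miR-30a-5p and by 0.146 in miR-30c-5p, and rose by 0.0380 in miR-30a-3p. These slopes therefore do not separate a shift between arms from a shift between end classes.

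**Figure D4:**
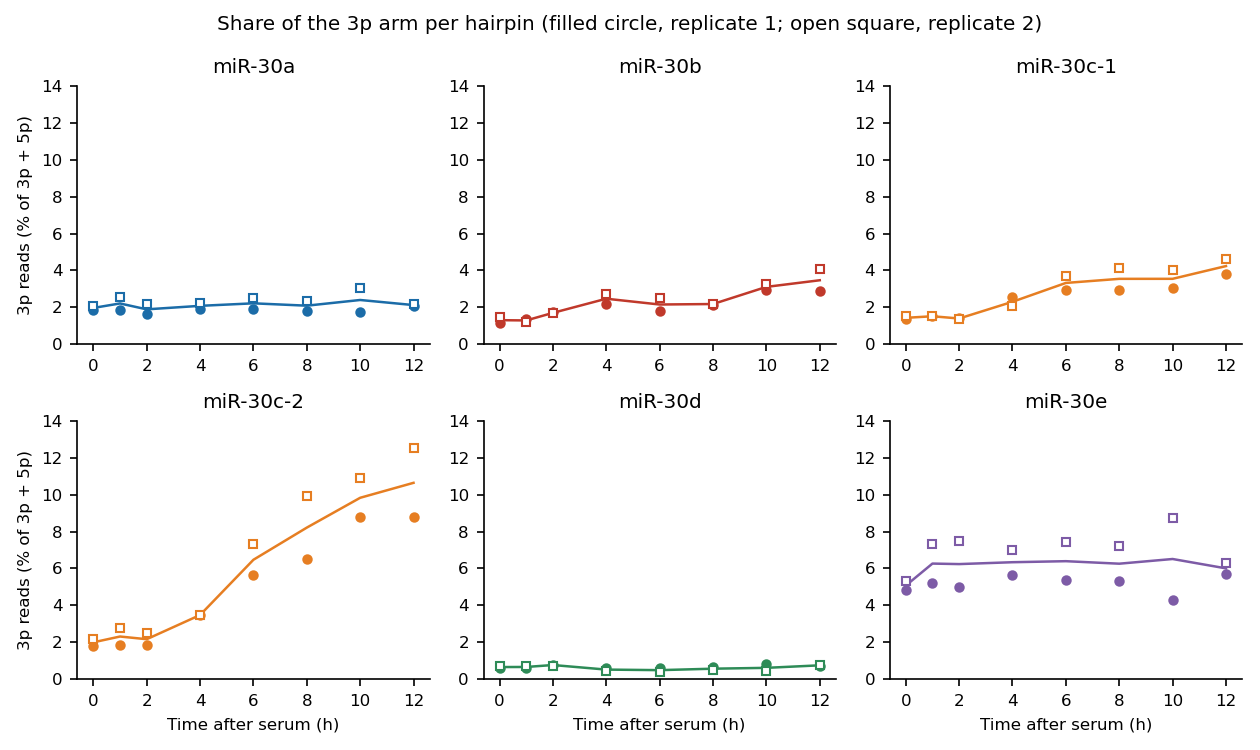
Share of 3p reads among the 3p and 5p reads of each miR-30 hairpin (percent, same axis in every panel) against hours after serum, 1 symbol per library and a line through the means. Mir30c-2 stands at 8.77% and 12.5% at 12 h, against 1.81% and 2.18% at 0 h, while the libraries of miR-30e spread by replicate at 10 h.

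Going by its class names, the table also sorts each miRNA's reads by their ends, into reads equal to the reference, trimmed reads, reads with extra 3′ bases that match the hairpin, and reads with extra 3′ bases that do not (non-templated), which are split by the base added. Single adenosines or uridines at miRNA 3′ ends are known products of terminal nucleotidyltransferases such as Tent2. By limma on the log2 odds of a class over 244 miRNAs, 19 of 44 member shares with a mean of at least 10 reads changed with time over the 7 measures, against 32% of such shares of all miRNAs. The classes of a miRNA split the same reads, and added A is part of the non-templated class. The 44 shares are therefore not independent, and a single shift can be counted in more than 1 class. The percentages per class given next are of all 244 miRNAs, with no minimum of reads in the class. They include miRNAs with few reads of a class and so are not matched to the members. The trimmed share fell in 6 of 8 members (18.9% of all miRNAs fell), and the 3′ templated share rose in 3 (10.2% of all rose). The reference share fell in 3 and rose in 2 (28.3% and 13.5% of all), the non-templated share rose in 4 (28.7% of all) and the share with added A rose in 1 (11.1% of all). Added A did not pass in miR-30a-5p, miR-30d-5p, miR-30e-5p or miR-30e-3p (limma adjusted p from 0.150 to 0.291). In each of these both replicates were higher at 12 h than at 0 h, and in miR-30a-3p both were lower (limma adjusted p = 0.177). These fits had time as the only term. With the replicate number as a block 25 member shares passed, with no background count for that fit. Within replicate number 1 alone 13 of the 44 passed, against 21.8% of all in that fit, and within number 2 alone 11, against 21.7%. The trimmed call of miR-30b-5p (limma adjusted p = 0.0243) was lost without either 0 h library or 10 h replicate 1 (limma adjusted p up to 0.0662), and that of miR-30e-3p (limma adjusted p = 0.0436) was lost without any 1 of 11 libraries, all but both of 1 h and replicate 1 of 0 and 4 h and replicate 2 of 8 h (limma adjusted p up to 0.128). The non-templated call of miR-30a-3p (limma adjusted p = 0.0253) was lost without 0 h replicate 2 or either 10 h library (limma adjusted p up to 0.0593).

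miR-30c-5p was read mostly in a longer form, and its reference form took a falling share. Reads equal to the reference made up 8.17% and 7.87% of its reads at 12 h, against 20.4% and 21.6% at 0 h. The 12 h shares were below both 0 h shares in both replicates, and the trend in log2 odds was -0.146 per hour (SE 0.0125; limma adjusted p = 2.70e-07). The 3′ templated share, of reads that go on with the U found in both hairpins, was 83.2% and 84.3% at 12 h, against 72.2% and 70.8% at 0 h (0.0989 per hour, SE 0.0101; limma adjusted p = 6.44e-06). A single U added to the 3′ end would also match both hairpins, so in this class it cannot be told apart from hairpin sequence. In CPM, reference reads of miR-30c-5p averaged 55.1 ± 9.63 at 12 h, against 486 ± 42.9 at 0 h, and templated longer reads 574 ± 80.5 at 12 h, against 1652 ± 57.2 at 0 h (SD, n = 2 each). Counting reference reads only, the log2 change of miR-30c-5p at 12 h was -3.10 (edgeR adjusted p = 1.16e-08), beside -1.75 for all its reads.

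miR-30b-5p was read mostly as its reference form, and that share also fell. It was 83.9% and 83.3% at 12 h, against 93.0% and 93.1% at 0 h (-0.131 per hour, SE 0.0204; limma adjusted p = 9.03e-05). The non-templated share was 11.6% and 12.2% at 12 h, against 3.24% and 2.80% at 0 h, and rose by 0.194 per hour (SE 0.0323; limma adjusted p = 2.42e-04). Within that class, reads with added A made up 5.70% and 8.51% of miR-30b-5p reads at 12 h, against 1.18% and 1.57% at 0 h, and 6.64% and 10.5% at 8 h. The added-A trend was 0.213 per hour (SE 0.0419; limma adjusted p = 0.00311). The A-added reads averaged 26.2 ± 4.95 CPM at 12 h, against 12.6 ± 2.04 CPM at 0 h, while reference reads averaged 313 ± 30.9 CPM at 12 h, against 857 ± 30.1 CPM at 0 h (SD, n = 2 each).

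Added A on miR-30c-5p was higher from 2 h on and lower again by 12 h than at its highest. Over 0, 1, 2, 4, 6, 8, 10 and 12 h its share was 1.23%, 1.18%, 3.25%, 4.43%, 4.62%, 4.12%, 2.72% and 2.15% in replicate 1 and 1.28%, 1.53%, 4.23%, 4.20%, 4.00%, 2.95%, 2.80% and 2.31% in replicate 2. Every library from 2 h on was above all 0 h and 1 h libraries. The linear trend did not pass (0.0576 per hour, limma adjusted p = 0.363), and time was also fitted as a factor, a fit added after these values were seen. In that fit miR-30c-5p was higher at 2 h by 1.60 log2 odds (SE 0.26; limma adjusted p = 0.0221), the 1 miRNA of 244 with a change in added A at that time (0.41%). At 4 h it was higher by 1.82 (SE 0.26; limma adjusted p = 0.00698) together with miR-30b-5p, higher by 2.30 (SE 0.48; limma adjusted p = 0.0379), the 2 miRNAs that rose there (0.82%). The miR-30c-5p share was also higher at 6 h (1.82, limma adjusted p = 0.00712), 8 h (1.51, limma adjusted p = 0.0134) and 10 h (1.16, limma adjusted p = 0.0454), and was 0.84 above 0 h at 12 h (limma adjusted p = 0.125, or 0.0206 with the replicate block).

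miR-30b-5p was higher in added A at 6 h (2.53, limma adjusted p = 0.0239), 8 h (2.72, limma adjusted p = 0.0134) and 10 h (2.68, limma adjusted p = 0.0227) as well. For the 6 h comparison 1.23% of all miRNAs rose in added A, for 8 h 2.05%, for 10 h 2.87% and for 12 h 1.23%. The calls at single times rested on few libraries. For miR-30c-5p, the 2 h rise in added A failed the test when either library of 0, 2 or 12 h was left out (limma adjusted p up to 0.257), at 4 h without 4 h replicate 2 (adjusted p = 0.0691), at 8 h without either library of 0 or 8 h (limma adjusted p up to 0.128) and at 10 h without any 1 of 14 libraries (limma adjusted p up to 0.184). The 6 h call held without any 1 library. For miR-30b-5p, added A at 4 h was lost without any 1 of 8 libraries, both of 0, 2, 4 and 12 h (limma adjusted p up to 0.331), and at 6, 8 and 10 h without either 0 h library or replicate 2 of that time (limma adjusted p up to 0.189). Its 12 h rise (2.44, limma adjusted p = 0.0325) failed when either library of 0, 2 or 12 h was left out (limma adjusted p up to 0.200), and with the replicate block the 2 h change also passed (1.37, limma adjusted p = 0.00129). In CPM, A-added miR-30c-5p reads averaged 63.0 ± 3.39 at 2 h and 15.2 ± 1.52 at 12 h, against 29.1 ± 2.14 at 0 h (SD, n = 2 each). The share with added U had slopes of 0.0202 per hour for miR-30c-5p (limma adjusted p = 0.460) and -0.0199 for miR-30b-5p (limma adjusted p = 0.670). For miR-30c-5p, reads with a single added U would fall in the templated class, so this share does not count them.

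**Figure D5:**
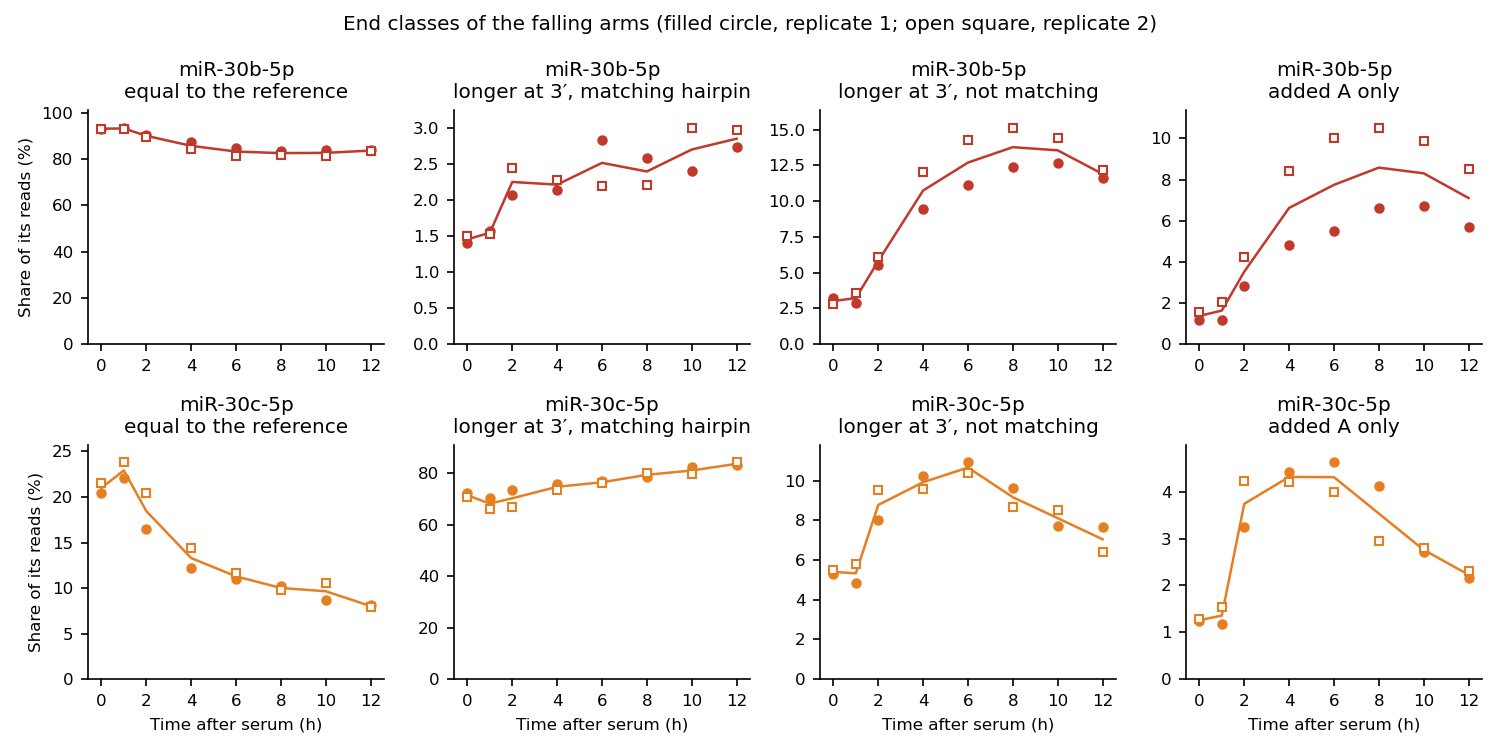
Share of reads (percent of each miRNA's reads, linear axes that start at 0 and differ between panels) in 4 end classes for miR-30b-5p (top) and miR-30c-5p (bottom) against hours after serum, 1 symbol per library and a line through the means. For miR-30c-5p, added A is highest at 6 h in replicate 1 (4.62%) and at 2 h in replicate 2 (4.23%), and for miR-30b-5p it reaches 10.5%.

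miR-30a-5p, which had its largest class in the 3′ templated form as well, shifted towards longer reads too. The trimmed share was 16.7% and 16.6% at 12 h, against 22.1% and 22.1% at 0 h (-0.0435 per hour, limma adjusted p = 0.00117), and the 3′ templated share was 76.1% and 76.1% at 12 h, against 70.0% and 69.5% at 0 h (0.0405 per hour, limma adjusted p = 0.00125). Its reference share was 3.87% and 3.75% at 12 h, against 4.76% and 5.32% at 0 h (-0.0399 per hour, limma adjusted p = 0.00117). Within replicate number 1 alone, neither the templated share (limma adjusted p = 0.0757) nor the reference share (limma adjusted p = 0.128) of miR-30a-5p passed. For miR-30c-2-3p the reference share was higher late in the course, at 82.3% and 80.1% at 12 h, against 76.5% and 73.3% at 0 h (0.0773 per hour, limma adjusted p = 0.00623), though it passed within neither replicate number alone. miR-30d-5p rose slightly in its non-templated share, with 4.65% and 4.58% at 12 h, against 4.16% and 4.26% at 0 h (0.0164 per hour, limma adjusted p = 0.00685), which passed within neither replicate number alone. miR-30d-5p and miR-30e-5p, the guides whose levels did not pass, had no called change in their trimmed, templated or reference shares.

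Time courses most like those of the extreme members were picked among 255 miRNAs outside the family with a mean of at least 10 CPM. Across the 16 libraries, log2 CPM of miR-30c-5p correlated best with that of miR-335-3p (r = 0.899), miR-467d-3p (r = 0.886) and miR-196b-5p (r = 0.873). miR-30c-2-3p correlated best with miR-17-5p (r = 0.863), miR-6539 (r = 0.826) and miR-92a-3p (r = 0.802). The points share libraries and the time course, and the values describe these libraries only.

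Other seed families whose guides are abundant in fibroblasts were compared by counts. Beside the 12% of all miRNAs that rose with the trend and the 13.1% that fell, the lists gave small counts. Of 9 let-7 guides, which share a seed as the miR-30 guides do, 1 rose and 1 fell with the trend, let-7i-5p at 0.0302 and let-7b-5p at -0.0528 log2 per hour. Of 2 miR-26 guides 1 fell, miR-26a-5p at -0.0339, and miR-26b-5p had a slope of -0.00783. Of 4 miR-181 guides 1 rose, miR-181a-5p at 0.0154, named after its value was seen, within a range from 0.00242 for miR-181b-5p to 0.0168 for miR-181c-5p. Among the 5 miR-30 guides 1 rose and 2 fell, and slopes spanned -0.158 to 0.0278. Whether the spread of slopes differs between the families was not tested.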

How the data were processed

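Small RNA libraries (TruSeq small RNA kit, 1000 ng of total RNA, per the labels' protocols) were read with CASAVA 1.8.0, per the submitters' processing notes; no source used here names the aligner, miRBase release or build. The deposited table holds raw counts per miRNA and end class, per the file headers and values. It has 6511 entries, 1 of them an identical duplicate that was dropped. Each read was counted once per mature miRNA, by adding the reference, trimmed, 3′ and 5′ classes; the entries per added base repeat the non-templated class. Class meanings were read from their names.

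Fits used edgeR 4.0.16 (TMM factors 0.935 to 1.07; filterByExpr, minimum count 10) and limma 3.58.1 in R 4.3.3, on all 16 libraries and all miRNAs, with Benjamini-Hochberg adjustment at 0.05 and time as the only term. SE of edgeR changes are approximate, from the F statistic. Arm ratios needed a mean of 10 reads in each arm and end classes a mean of 100 reads per miRNA, with 0.5 reads added. Scripts were tested on simulated data. Named miRNAs are the 8 members, the other miR-30 arms, the 3 nearest patterns of the extreme members, and the extreme members of comparison families, with miR-181a-5p added because it passed. The members and lists were chosen with earlier results of these data known. Replicate numbers pair the samples: deviations from the time means correlated in each of the 28 pairs of times (r from 0.134 to 0.602, median 0.286). Each number was 1 experiment with 1 header code, taken as its run. Alternatives were other scaling, filters, tests (DESeq2 1.42.0, limma-voom), read classes, the replicate block, times, and each library left out; fits within a replicate number, pairs without 12 h, time as a factor for end classes and a minimum per class were added after seeing the data. Further time points named in the series text were not analysed here.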

Additional observations from a re-analysis of the deposited data

How the results depend on the processing

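With 2 libraries per time, calls near the threshold rested on single libraries, and the cause of each shift was not tested. The 12 h and trend calls for miR-30c-5p and miR-30b-5p, the 3 arm calls and the 7 paralog ratios held in every alternative run for them. On total counts without TMM, 2 members passed at 12 h and 3 with the trend; the median change of all miRNAs at 12 h was then -0.15, beside 0.00467 with TMM, and the 68 calls were 23 higher and 45 lower, beside 37 higher and 27 lower. With the replicate block, 5 members passed for any change and 1 at 2 h; all miRNAs called numbered 110, beside 62 without it, and at 12 h 108, beside 64. The block changed no call of the arm ratios, and of the 10 paralog pairs 8 passed. The end classes then had 25 member shares called, beside 19 without it. Within replicate number 2, the trend called 2 members and the end classes 11 shares. Leaving out 1 library gave 1 to 2 members called at 4 h, 1 to 2 at 6 h, 1 to 2 at 8 h, 2 to 4 at 12 h and 3 to 5 with the trend.

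Reversals of sign were of changes near 0, except for miR-30a-5p. On reference reads only, miR-30a-5p was at -0.0182 at 12 h with a slope of -0.00507, miR-30d-5p at -0.16 with -0.00291, and the slopes were 0.00709 for miR-30e-3p and 0.0109 for miR-30b-3p; the miR-30d arm slope was 0.0146 and miR-30d-5p over miR-30a-5p 0.00199. On total counts, miR-30d-5p was at -0.15 and miR-30e-3p at -0.11 at 12 h, with slopes of -0.00835 for miR-30d-5p and -0.0103 for miR-30d-3p. Other slopes were 9.74e-04 for miR-30e-3p with no low-count filter, 0.00216 for miR-30e-3p and 0.00651 for miR-30b-3p on templated classes, and 0.00217 for miR-30e-5p without 0 h. miR-30d-5p at 12 h was -0.00449 with 0 h and 12 h libraries only. Within replicate number 2, slopes were 0.00286 for miR-30e-3p, 0.00294 for miR-30b-3p and -0.0147 for miR-30d-3p, and within number 1 the miR-30d arm slope was 0.0174. With 1 library left out, slopes lay from -0.00364 to 0.00254 for miR-30e-3p, -0.0164 to 0.00180 for miR-30b-3p, -0.00713 to 0.0117 for miR-30d-3p and -0.0202 to 0.00103 for miR-30e-5p. The arm slopes lay from -0.0171 to 0.00526 for miR-30d and -7.74e-04 to 0.0213 for miR-30e, and 12 h changes from -0.0828 to 0.137 for miR-30d-5p and -0.00422 to 0.138 for miR-30e-3p.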
